A study of Mus musculus with 2 samples.

Results

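Replication timing scores were taken for the genes of the microtubule and actin motors and of tubulin: kinesins, dyneins, myosins, and alpha-, beta- and gamma-tubulins. The members were the protein-coding genes of the RefSeq annotation (GRCm38.p6, the coordinates of mm10) whose symbols begin with Kif, Dync1, Dync2, Dnah, Myo, Myh, Tuba, Tubb or Tubg followed by a number. There were 116 members among 21225 protein-coding genes with a score: 38 kinesins, 7 cytoplasmic dynein subunits, 15 axonemal dynein heavy chains, 25 unconventional myosins, 14 myosin heavy chains and 17 tubulins. Every gene that the name rule found had a score, so none of these was lost.

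The scores came from mouse 46C embryonic stem cells of strain 129P2/Ola, kept with leukemia inhibitory factor and given 50 µM BrdU for 2 h. BrdU is a thymidine analogue that marks newly made DNA. Cells were sorted by DNA content into early and late S phase, with 1 library for each, and the authors joined both libraries in a single score smoothed over 300 kb. No member therefore has a replicate error, no test between conditions was possible, and the read depth is unknown. Positive was taken to mean early because the deposited table names early before late, which is an assumption. Neither the scale of the score nor its zero point is stated in the labels or the file. Scores describe DNA and not expression, so the labelled cell type was not checked against marker genes.

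Kinesins and dyneins are motors that walk along microtubules, the hollow polymers of alpha- and beta-tubulin, while myosins pull on actin filaments. Most kinesins move towards the growing end of the microtubule, and cytoplasmic dynein moves the opposite way. In dividing cells such as stem cells these motors build the spindle, align the chromosomes and separate the daughter cells. Axonemal dyneins bend motile cilia and sperm tails, and most sarcomeric myosins serve muscle.

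Most members were early, and the families differed in how many were not. Of the 116 members, 94 (81.0%) lay above 0, against 73.5% of all protein-coding genes, and the median was 1.31 against 1.02. The lowest member was Kif16b, a kinesin of early endosomes, at -1.39, and the highest was Dnah17, an axonemal dynein heavy chain, at 1.90. Above 1 lay 73 members, where 50.5% of all protein-coding genes did. Above 1.5 lay 43 members, where 26.9% of all protein-coding genes did, and below -1 lay 7 members, where 9.59% did. Within 0.25 of 0 lay 11 members, and 8.74% of all protein-coding genes. Tubulins had the highest family median, 1.62, with 16 of 17 above 0, and axonemal dyneins the lowest, 0.78, with 9 of 15. Kinesins had 32 of 38 above 0 (median 1.22), unconventional myosins 22 of 25 (1.38), myosin heavy chains 10 of 14 (1.14) and cytoplasmic dynein 5 of 7 (1.55). These are counts over genes of 1 profile, and genes are not replicates. Of the members, 17 lay in 6 clusters with midpoints under 300 kb apart, the width of the smoothing, and so shared much of their signal. When members of a family within 1 Mb were taken as 1 unit, 85 of 102 units lay above 0. Counted from the autosomal median of the score, 98 of 116 members were early, and 78.5% of all protein-coding genes.

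**Figure D1:**
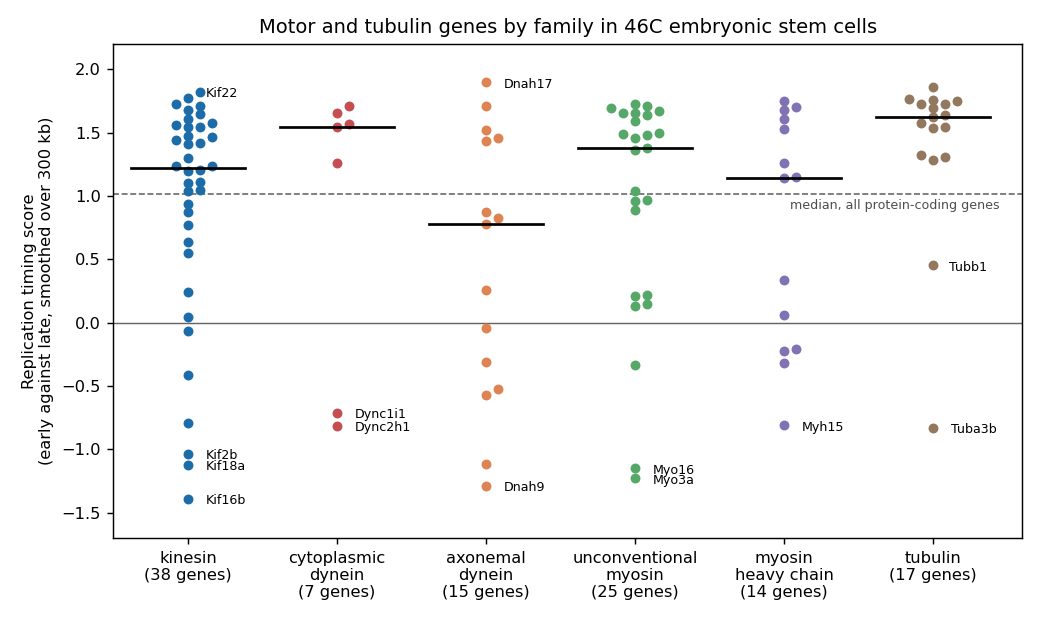
Score of each of the 116 members (points) by family, with the family median as a black bar, 0 as a solid line and the median of all protein-coding genes, 1.02, as a dashed line. Tubulins sit close together except for Tubb1 at 0.45 and Tuba3b at -0.83, whereas axonemal dyneins spread from -1.29 to 1.90.

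Some close relatives lay on opposite sides of 0. Genes with the same name and number and a different letter or none, such as Kif18a and Kif18b, formed 22 classes with 57 members. In 8 of these classes members lay on both sides of 0, and the median difference between the highest and the lowest member of a class was 0.80. Of all protein-coding genes 26.5% lay below 0, and sets of unrelated genes were not counted in the same way. Whether relatives are split more or less often than other genes was therefore not tested. The widest was Kif18, with Kif18b at 1.61 and Kif18a at -1.12. Next came Kif2, from Kif2c at 1.55 to Kif2b at -1.04, and Tuba3, from Tuba3a at 1.62 to Tuba3b at -0.83. The other classes on both sides were Myo5, Myo3, Dnah7, Kif21 and Kif26. At the other extreme the neighbours Tubb2a and Tubb2b differed by 0.011 and lay in 1 smoothing window.

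The 250 bases before the start site are printed for the widest pairs whose listed start sites lie at the ends of the genes, Kif18 and Tuba3, and for the highest and lowest of the clustered skeletal myosin heavy chains, to show how alike or unlike the promoters of such pairs were. They come from RefSeq (GRCm38.p6), run 5′ to 3′ on the strand of the gene, and have each CG pair in capitals. Kif18b is at chr11:102925125-102925374 on the minus strand and Kif18a at chr2:109280488-109280737 on the plus strand. Tuba3a is at chr6:125286082-125286331 on the minus strand and Tuba3b at chr6:145615713-145615962 on the plus strand. Myh3 is at chr11:67078050-67078299 and Myh8 at chr11:67276874-67277123, both on the plus strand.
Kif18b: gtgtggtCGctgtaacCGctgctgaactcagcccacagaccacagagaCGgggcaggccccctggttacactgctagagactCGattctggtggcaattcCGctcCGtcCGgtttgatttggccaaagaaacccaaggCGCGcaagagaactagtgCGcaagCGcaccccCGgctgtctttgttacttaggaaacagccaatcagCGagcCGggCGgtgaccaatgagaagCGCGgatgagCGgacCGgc
Kif18a: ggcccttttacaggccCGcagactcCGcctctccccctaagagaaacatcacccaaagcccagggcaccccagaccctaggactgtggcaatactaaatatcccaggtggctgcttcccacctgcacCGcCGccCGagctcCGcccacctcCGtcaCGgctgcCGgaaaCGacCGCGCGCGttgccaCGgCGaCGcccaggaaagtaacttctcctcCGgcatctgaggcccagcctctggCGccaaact
Tuba3a: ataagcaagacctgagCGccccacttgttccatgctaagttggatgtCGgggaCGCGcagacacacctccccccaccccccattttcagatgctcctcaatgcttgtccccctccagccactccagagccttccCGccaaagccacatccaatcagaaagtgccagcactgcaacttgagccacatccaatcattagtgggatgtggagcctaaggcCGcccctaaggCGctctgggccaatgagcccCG
Tuba3b: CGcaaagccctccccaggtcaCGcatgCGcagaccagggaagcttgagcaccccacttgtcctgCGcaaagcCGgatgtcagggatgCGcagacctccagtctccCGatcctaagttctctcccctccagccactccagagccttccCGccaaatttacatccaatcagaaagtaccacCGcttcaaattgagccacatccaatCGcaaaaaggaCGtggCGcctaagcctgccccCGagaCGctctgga
Myh3: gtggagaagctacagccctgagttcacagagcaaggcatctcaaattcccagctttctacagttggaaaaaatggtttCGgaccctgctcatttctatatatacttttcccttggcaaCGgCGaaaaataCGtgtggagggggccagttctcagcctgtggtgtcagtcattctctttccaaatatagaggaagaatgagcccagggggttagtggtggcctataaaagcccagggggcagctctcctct
Myh8: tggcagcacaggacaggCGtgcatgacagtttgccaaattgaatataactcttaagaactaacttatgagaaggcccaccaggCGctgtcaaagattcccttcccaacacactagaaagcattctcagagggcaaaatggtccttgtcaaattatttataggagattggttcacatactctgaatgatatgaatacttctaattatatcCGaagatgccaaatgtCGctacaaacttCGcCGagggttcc

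Kif18b and Kif18a had 19 CG pairs each in this window, although their scores differed by 2.74. Tuba3a had 8 and the late Tuba3b 14, at the same GC content of 58.4%. In a global alignment 63.6% of the columns of the Tuba3 pair were identical, against 48.5% for the Kif18 pair and 48.7% for Myh3 and Myh8. Gaps filled 66 of 283 columns for Tuba3, 118 of 309 for Kif18 and 104 of 302 for the Myh pair. Unrelated promoters were not aligned, so these shares do not measure conservation. Myh3 had 4 CG pairs and Myh8 6. Myh3 carried the letters TATAAA, the core of a TATA box, beginning 29 bases before the start, and Myh8 held the same letters on the opposite strand.

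Promoter composition was counted for the 97 members with an entry in the promoter table. The median number of CG pairs was 12 in the 77 members above 0 and 7.5 in the 20 below 0. Among all protein-coding genes with an entry it was 13 above 0 and 3 below. Kinesin promoters had a median of 20 CG pairs, and 26 of 31 had at least 10, a number reached by 51.6% of all protein-coding genes with an entry. Myosin heavy chain promoters had a median of 4. TATAAA on either strand stood in 6 of the 13 myosin heavy chain promoters and in 12.4% of all. Of these 6, Myh1, Myh3, Myh4 and Myh8 are neighbours in the skeletal myosin cluster, and the others were Myh9 and Myh15. CCAAT on either strand stood in 6 of 13 and in 36.5% of all. In the other families TATAAA stood in 4 of 31 kinesin, 0 of 5 cytoplasmic dynein, 1 of 14 axonemal dynein, 1 of 20 unconventional myosin and 1 of 14 tubulin promoters. A match of letters is a description of the window and not a binding site.

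Among kinesins, the motors of cell division were mostly early. Of 11 kinesins of the spindle and of cytokinesis 10 lay above 0, with a median of 1.47. Of all protein-coding genes 73.5% lay above 0, with a median of 1.02. Kif22, which pushes chromosome arms from the poles, was the highest kinesin at 1.82. Kif20a, which carries the chromosomal passenger complex to the midzone, had 1.73 and Kif14, a cytokinesis motor, 1.71. Kif11, which slides the spindle poles apart, had 1.47, and Kif15, which can share that task, 1.24. Kif23, a part of the centralspindlin complex, had 1.04, the chromosome-bound Kif4 on X had 1.10 and Kif20b, another cytokinesis motor, 0.77. The exception in this list, which does not hold Kif2b, was Kif18a, which damps the movements of chromosomes at the metaphase plate. It lay at -1.12 at its midpoint and between -1.13 and -1.09 over its whole 61.0 kb (chromosome 2, 109280738 to 109341749). Kif18a had 2 other protein-coding genes within 500 kb on either side, and Kif18b, which acts on astral microtubules, had 27.

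Kif2a, Kif2b and Kif2c shorten microtubules from their ends, and they covered much of the range of the family. Kif2c had 1.55, Kif2a 1.05 and Kif2b -1.04. Kif2b, a gene of only 2.27 kb on chromosome 11 (91575286 to 91577555), had no protein-coding neighbour within 500 kb and lay in a late run of 4.46 Mb.

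Of 12 kinesins of cargo transport 10 lay above 0, where 73.5% of all protein-coding genes did. Their median was 1.02, near that of all protein-coding genes. The Kif1 motors of vesicles and their precursors had 1.77 (Kif1c), 1.65 (Kif1b) and 1.11 (Kif1a). The conventional kinesin heavy chains stepped down from Kif5a at 1.41 to Kif5c at 0.63 and Kif5b at 0.55, the latter in an early run of only 0.454 Mb. Kif16b was the latest member of all, with values inside its 283 kb (chromosome 2, 142618340 to 142901609) between -1.44 and -0.82. Kif21a, a regulator of microtubule growth at the cell edge, lay at the border at -0.06, while Kif21b had 1.24. Measured from the autosomal median instead of 0, Kif21a had 0.24.

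Kinesins of the cilium were early in 8 of 9 cases, with a median of 1.44, where 73.5% of all protein-coding genes were early. Kif3a (1.67) and Kif3b (1.41), subunits of the motor of anterograde intraflagellar transport, Kif7 of the Hedgehog pathway (1.55) and Kif19a, which limits ciliary length (1.57), were among them. Kif6 was the exception at -0.79, in a late run of 4.60 Mb. Among kinesins in none of these lists, Kif26b, a non-motile kinesin of kidney development, had -0.42, Kif26a 0.24 and Kif12 0.04. Kif12 and Kif26a had 12 and 17 protein-coding neighbours in 1 Mb, near the median of 13 over all members.

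**Figure D2:**
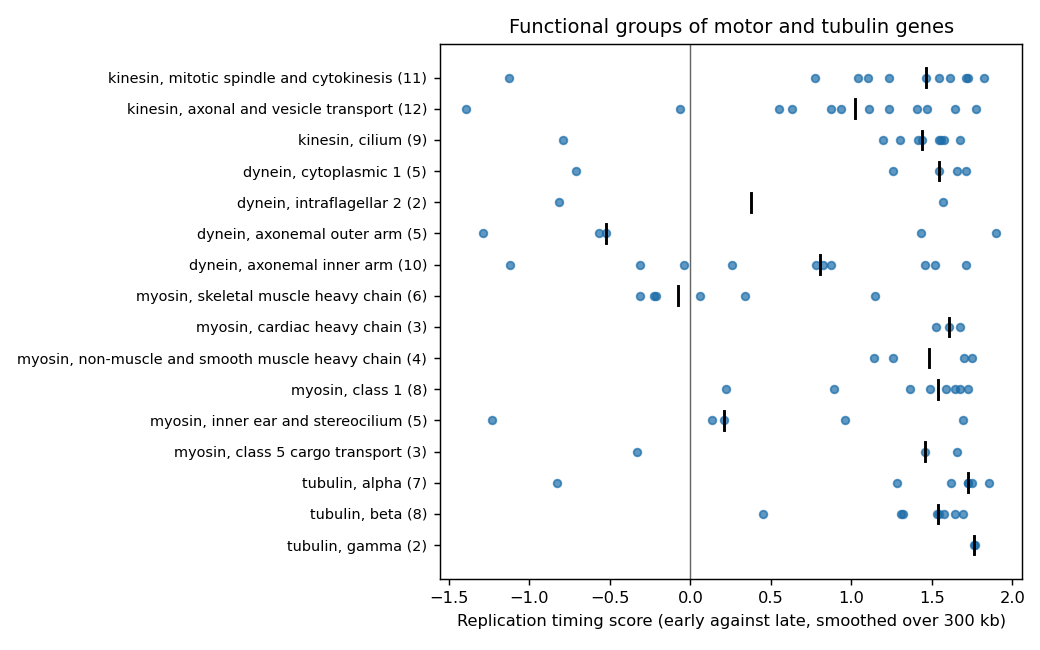
Score of each member (points) in 16 functional groups, with the number of genes in parentheses and the group median as a black bar. The outer arm dyneins and the skeletal muscle heavy chains have medians below 0, at -0.53 and -0.08, and all other groups have medians above 0.

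Subunits of cytoplasmic dynein fell into 5 early and 2 late genes. The early share, 71.4%, was near the 73.5% of all protein-coding genes. Dync1h1, the heavy chain of the motor for retrograde transport and spindle positioning, had 1.71. The light intermediate chains Dync1li1 and Dync1li2 had 1.66 and 1.26. The intermediate chains, which bind cargo through dynactin, lay apart: Dync1i2 had 1.55 and Dync1i1 -0.71. Dync1i1 spans 302 kb (chromosome 6, 5725600 to 6028039) and lay wholly in a late run of 0.443 Mb, with ends at -0.30 and -0.06. The motor of retrograde intraflagellar transport was divided in the same way, with its heavy chain Dync2h1 at -0.81 (chromosome 9, 6928550 to 7178306) and its light intermediate chain Dync2li1 at 1.57. Dync2i1 and Dync2i2, also listed for this motor, had no match under these names and are not among the members. The late genes were 249.8 and 302 kb long, and the 5 early ones were 25.4 to 65.6 kb.

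Axonemal dynein heavy chains had the most late members in proportion. Of 5 outer arm chains 2 lay above 0: Dnah17 (1.90) and Dnah8 (1.43), both of which serve sperm tails. Dnah5 (-0.53), Dnah11 (-0.57) and Dnah9 (-1.29), chains of the motile cilia of airways and the embryonic node, lay below. At the lower-coordinate ends of the genes 4 of the 5 lay above 0, since Dnah5 and Dnah11 had 0.11 and 0.12 there. Of 10 inner arm chains 7 lay above 0, near the share of 73.5% over all protein-coding genes. The highest were Dnah2 (1.71), Dnah1 (1.52) and Dnah10 (1.46), followed by Dnah12 (0.87), Dnah14 (0.82), Dnah6 (0.78) and Dnah7a (0.26). Dnah3 was at the border with -0.04 and had 0.26 when measured from the autosomal median. Dnah7b and Dnah7c, side by side on chromosome 1 (46066071 to 46807477), had -1.12 and -0.31. The 4 axonemal dynein genes shorter than 150 kb had 1.90, 1.71, 1.52 and 1.46, and all 6 late ones were 174 to 382 kb long. Dnah8, Dnah12, Dnah14, Dnah6 and Dnah7a were early although they were 201 to 310 kb long. Of all protein-coding genes of at least 150 kb, 42.1% lay above 0.

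Unconventional myosins were early with 3 exceptions, all longer than 300 kb. Myo3a, a kinase-bearing myosin of the stereocilia of hair cells, had -1.23 (chromosome 2, 22227503 to 22618252), Myo16 -1.15 (chromosome 8, 10153911 to 10634742) and Myo5b, a motor of recycling endosomes, -0.33. All 8 class 1 myosins, which link membranes to actin, lay above 0, and the highest was Myo1c at 1.73. Myo18a (1.71) and Myo15 of the stereocilia (1.69) were next highest. Of 5 myosins of hearing 4 lay above 0, where 73.5% of all protein-coding genes did, and their median was 0.21. Myo7a had 0.96, Myo3b 0.21 and Myo6, the myosin that walks towards the minus end of actin, 0.13. Myo5a, which carries melanosomes, and Myo5c, beside each other on chromosome 9, had 1.46 and 1.66. Myo10 of filopodia had 0.97, the mitochondrial Myo19 1.66, and Myo18b of muscle 0.15.

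Of the myosin heavy chains all those of the heart, of smooth muscle and of non-muscle cells were early, as were 73.5% of all protein-coding genes. The cardiac and slow muscle chains Myh6 (1.68), Myh7 (1.61) and Myh7b (1.53) lay close together. The non-muscle chains Myh14 (1.75), Myh9 (1.70) and Myh10 (1.26) and the smooth muscle chain Myh11 (1.14) were more spread. Myh6 and Myh7 lie beside each other on chromosome 14 and are not separate measurements. Myh15 was the latest at -0.81 (chromosome 16, 49057400 to 49199563). The 6 skeletal muscle chains, in 1 cluster of 293 kb on chromosome 11 (67078273 to 67371587), had a median of -0.08.

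Within this cluster the score fell along the chromosome from Myh3 to Myh8. Myh3, the embryonic chain, had 1.15. The adult fast chains Myh2, Myh1 and Myh4 followed at 0.34, 0.06 and -0.23. Myh8, the perinatal chain, had -0.32, and Myh13, of the extraocular muscles, had -0.21. Midpoints of Myh3 and Myh8 lay 203 kb apart, and their scores differed by 1.46. The score crossed 0 once between the first and the last gene, 145 kb from the start of Myh3 and inside Myh1. Myh3 lay on the side of an early run of 402 kb that peaked at 1.37, 62.2 kb before the gene. The late run after it was 592 kb long and reached -0.73. Because the cluster is about as long as the smoothing window, the 6 scores are points on 1 slope and do not give 6 measurements. Measured from the autosomal median, 5 of the 6 genes lay above it, so the crossing depends on where 0 is set, while the order of the scores does not.

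**Figure D3:**
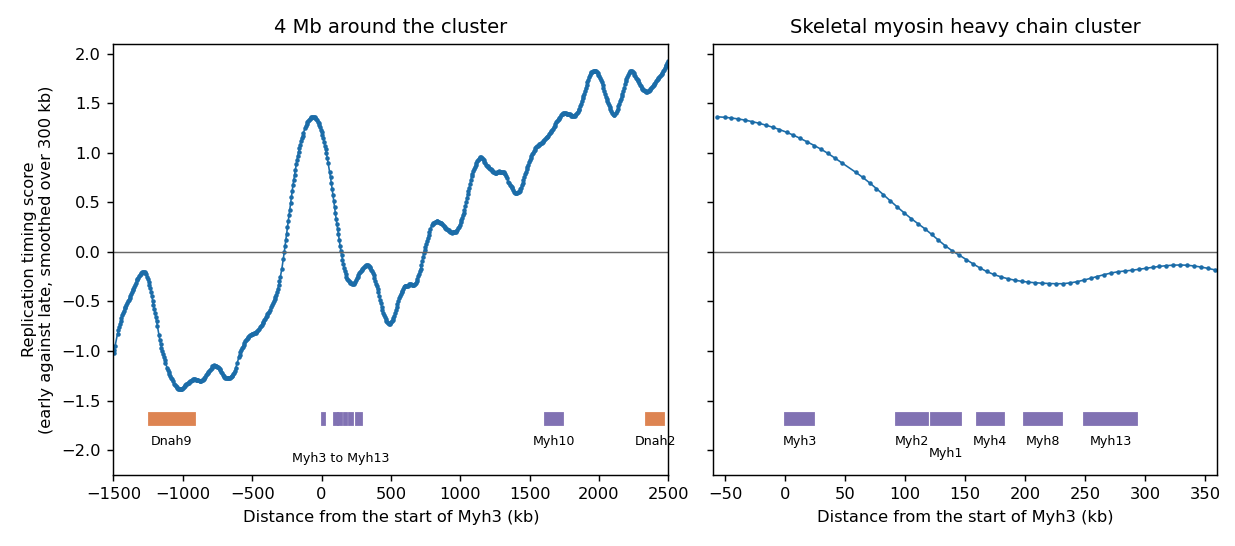
Score along chromosome 11 against the distance from the start of Myh3, over 4 Mb (left) and over the cluster (right), with each table position as a point and gene extents as boxes at the foot (purple for myosin heavy chains, orange for axonemal dyneins). The profile falls through 0 at 145 kb, between a peak of 1.37 before Myh3 and values near -0.3 at Myh8.

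Tubulins had the narrowest range between quartiles of the 6 families, 1.32 to 1.73. Alpha-tubulins Tuba1c (1.86), Tuba1a (1.75) and Tuba1b (1.72), the main alpha-tubulins of dividing cells and neurons, sit within 107 kb on chromosome 15 and share 1 early run of 5.92 Mb. Tuba4a had 1.73, Tuba3a 1.62 and Tuba8 1.28. The late exception Tuba3b, on chromosome 6 (145615963 to 145621477), lay 0.115 Mb from the nearest change of sign. All 8 beta-tubulins lay above 0, where 73.5% of all protein-coding genes did. They ran from Tubb3, known from neurons, at 1.69 to Tubb1, known from platelets, at 0.45. The widely used Tubb5 had 1.55, and Tubb4a, Tubb4b and Tubb6 had 1.64, 1.57 and 1.53. The gamma-tubulins Tubg1 and Tubg2, which start new microtubules at the centrosome, lie 35.7 kb apart by their midpoints on chromosome 11 and had 1.76 and 1.77. Tubulin genes were 2.55 to 15.4 kb long, and 12 of 17 lay above 1.5.

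Late members were mostly long genes, 14 of 22 being at least 150 kb. The 22 members below 0 had a median length of 289 kb, and the 94 above 0 had 46.0 kb. Among all protein-coding genes the medians were 14.7 kb below 0 and 18.2 kb above. Of 30 members of at least 150 kb 16 lay above 0, where 42.1% of protein-coding genes of that length did, and the median was 0.18 against -0.30. Of 32 members of 50 to 150 kb 29 lay above 0 (77.7% of protein-coding genes of that length), and of 54 shorter ones 49 did (75.4%). The 5 late members under 50 kb were Kif2b, Tuba3b and the clustered Myh4, Myh8 and Myh13. Across members Spearman's rho between length and score was -0.50 (n = 116), and across all protein-coding genes -0.034. These correlations describe genes of 1 profile, in which neighbours share signal.

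The number of other protein-coding genes within 500 kb on either side had a median of 3 for late and 15 for early members. With 20 or more such neighbours all 35 members lay above 0, where 81.0% of protein-coding genes did, and with 10 to 19 neighbours 38 of 42 (82.2%). With 5 to 9 neighbours 15 of 20 did (70.2%), and with 0 to 4 neighbours 6 of 19 (31.1%). Kif2a, Kif3c, Kif5b, Kif5c and Myo10 were among those 6. Length and neighbour number went together, with a median of 18.5 neighbours for members under 50 kb and 5.5 for those of at least 150 kb, and their parts were not separated.

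**Figure D4:**
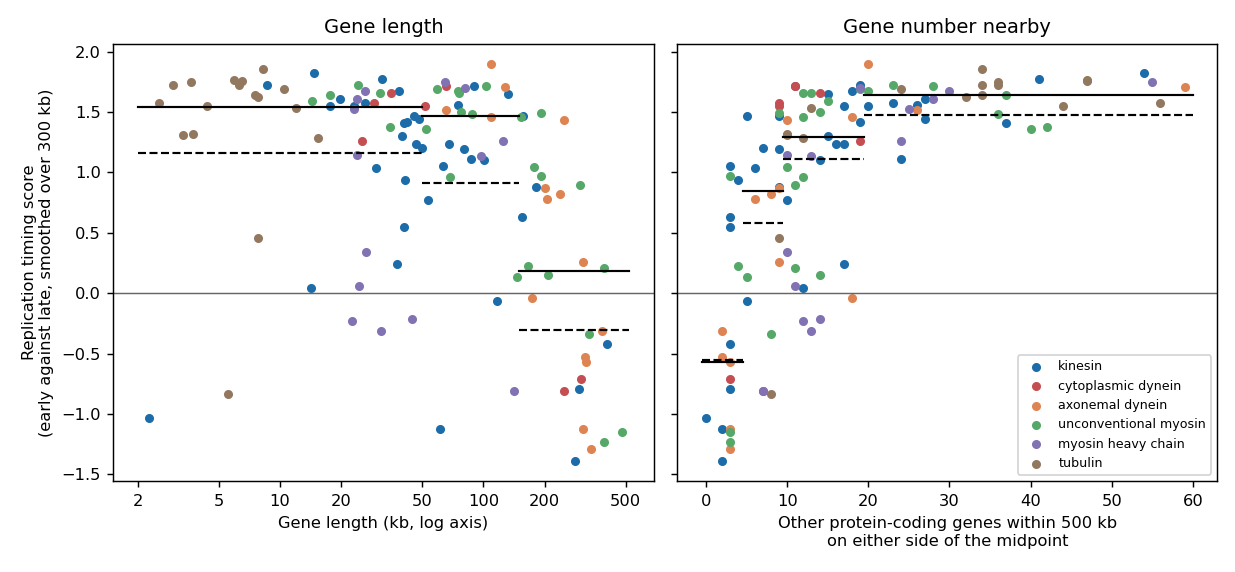
Score of each member against gene length on a log axis (left) and against the number of other protein-coding genes nearby (right), coloured by family. Solid bars are the medians of members in each class and dashed bars those of all protein-coding genes in it; members of 150 kb or more have a median of 0.18, and every member with 20 or more neighbours lies above 0.

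Several long members crossed from early to late within the gene. In 8 members (6.90%) the ends lay on different sides of 0, where 2.97% of all protein-coding genes had such ends, and 5 of the 8 were at least 150 kb long. Of protein-coding genes of that length 21.4% had such ends, against 5 of 30 members. Dnah5 fell from 0.11 at its lower-coordinate end to -1.41 at the other end, 317 kb away, and had -0.09 at its listed start site, which lies inside the gene. Dnah7c rose from -1.09 at its start to 0.14. Kif26b began at 0.51 and fell to -0.42 at its midpoint, and Myo5b rose from -0.40 at its lower-coordinate end to 0.56. Dnah11 ran from -0.54 at its start to 0.12, Myo6 from 0.42 to -0.20, Kif21a from 0.15 to -0.40 and the short Myh1 from 0.18 to -0.03.

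The score varied by over 1 inside 7 members, of which 4 were axonemal dyneins: Dnah5, Dnah14 (a range of 1.24), Dnah7c (1.19) and Dnah9 (1.08). All 7 were among the 30 members of at least 150 kb, and 23.4% of protein-coding genes of that length had such a range. The median range inside was 0.545 for these 30 members and 0.597 for all protein-coding genes of that length. The largest range of all members, 1.59, was in Myo1d, whose ends had 1.72 and 0.12, and the others were Kif26b and Myo3b (both 1.02). Inside members under 50 kb the range was at most 0.218. Of 24 members of at least 150 kb with a known start site, the end on the side of the start had the higher score in 8. The same count was not made for all protein-coding genes of that length, so it is not known whether members differ from them.

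**Figure D5:**
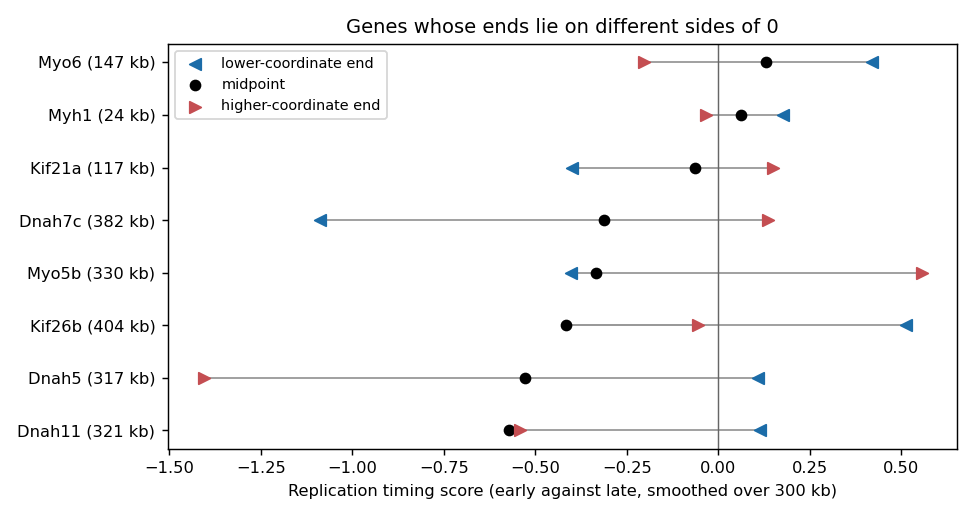
Scores at the lower-coordinate end, midpoint and higher-coordinate end of the 8 members whose ends lie on different sides of 0, with gene lengths in parentheses. Dnah5 spans the widest interval between its ends, from 0.11 to -1.41, and Myh1 the narrowest.

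Partner proteins of the motors, taken from a list of 74 genes that the name rule left out, were mostly early. Scores were found for 72 of them, and Dnai1 and Dnai2 had no match in the gene table under these names. Of the 72, 68 (94.4%) lay above 0, and their median was 1.48, against 73.5% and 1.02 for all protein-coding genes. Partner genes that lie close together were not joined in units, and Myl6 and Myl6b had the same score, 1.58. All 12 myosin light chains lay above 0, from Myl12b (1.82) and Myl9 (1.78) to Myl10 (1.40) and Myl1 (0.003), the fast skeletal chain at the border. Of 18 dynactin subunits and dynein adaptors 17 did, led by the dynactin subunit Actr1a (1.81) and Pafah1b1 (1.74), the lissencephaly protein, with Actr10 at 1.06 and the adaptor Hook1 at -0.27. Of 12 dynein light chains 11 lay above 0, from Dnal4 (1.87) and Dnali1 (1.78) to Dynlrb2 (0.009), with Dynlt3 on X below at -0.38. All 6 kinesin heavy chains without a Kif number were early, from Kifc5b at 1.75 and Kifc2 at 1.51 to Kifc3 at 1.30 and the kinetochore motor Cenpe at 1.18. The 6 kinesin light and associated chains were early too, with Klc2 (1.76) and Klc3 (1.71) the highest and Kifbp (1.47) and Kifap3 (0.09) the lowest. All 12 tubulin cofactors and related tubulin genes lay above 0, from Tubd1 (1.78) and Tubgcp6 (1.66) to Tbcd (0.76) and Tbce (0.21). Of the 6 actins 4 did: Acta1 of skeletal muscle (1.84) and Actg1 (1.63) were the highest, while the cardiac Actc1 had -0.03 and Acta2 of smooth muscle -0.80.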

How the data were processed

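Early and late S phase DNA of 10000 cells per fraction was sonicated to 100 to 600 bp, precipitated for BrdU, amplified and sequenced, per the labels' protocols. Per the submitters' processing notes, Bowtie2 aligned the reads to mm10. The authors then computed 1 score per position from both libraries and smoothed it over 300 kb, per the name of the deposited table. Read counting, scaling and log base: not given in the sources used here. Smoothing joins neighbouring genes and flattens short domains, and whole-genome amplification can add uneven coverage.

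A gene took the score of the table position nearest to its midpoint, within 100 kb (median distance for members 1638.5 bp, largest 9782 bp). Of 384798 positions 4 had no score. Scaffold genes (348) were left out of the RefSeq table. Runs were stretches of one sign without gaps over 300 kb. Promoter windows were the 250 bases before the outermost listed start site. Python 3.11.15, pandas 2.3.3 and numpy 2.4.6 were used, and the assignment of scores was tested on simulated data. The number of unused columns with per-sample values was 0.

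The members, gene lists, length classes and neighbour classes were chosen with earlier results of these data known. With 1 library per fraction no test was run. Genes named were, by the rule, each member below 0 or within 0.25 of it, the 3 highest and lowest of each family, clustered members, members with ends on different sides of 0, members of the functional groups described, and the 2 highest and 2 lowest of each partner list. A gene that this rule would name is not reported here, though it counts in its lists. Alternatives were a zero point moved to the autosomal median, both gene ends, the mean inside the gene, a limit of 20 kb, 1 Mb units, autosomes only, means, leaving out members within 0.25 of 0, and, added after the data were seen, the start site.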

Additional observations from a re-analysis of the deposited data

How the results depend on the processing

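The count of members above 0 was 94 of 116 at the midpoint. At the start site, which was listed for only 97 members, it was 79 of 97. It was 98 of 116 with 0 moved to the autosomal median. That zero point raised the median of all members to 1.61, of kinesins to 1.52, of cytoplasmic dynein to 1.85, of unconventional myosins to 1.68 and of tubulins to 1.93, a shift of the same size for every gene. Means in place of medians were 0.92 for all members and 0.92 for kinesins. The median of axonemal dyneins was 0.78 at the midpoint, 0.32 at the lower-coordinate end and 0.64 at the higher-coordinate end. Above 0 lay 9, 11 and 10 of these 15 genes. The zero point left 5 of 6 skeletal muscle chains above it, and it turned Dnah3 to 0.26, Kif21a to 0.24, Myh13 to 0.092 and Myh4 to 0.078. At the lower-coordinate end Dnah11 (0.12), Dnah5 (0.11) and Kif26b (0.51) turned early, and with the first 2 of these 4 of 5 outer arm dyneins lay above 0. At the higher-coordinate end Dnah7c (0.14), Kif21a (0.15) and Myo5b (0.56) turned early and Myh1 (-0.032) and Myo6 (-0.20) late. At the start site Kif21a (0.15) and Kif26b (0.51) turned early. Only 5 cytoplasmic dynein genes, 1 intraflagellar dynein gene and 1 gamma-tubulin had a listed start site, and 3, 0 and 1 of them lay above 0. With 1 Mb units the skeletal muscle chains became 1 unit above 0, the gamma-tubulins 1 and the class 5 myosins 2, of which 1 lay above 0. The mean inside the gene turned no gene, and for genes with fewer than 3 positions inside it was the midpoint score itself. The limit of 20 kb could turn none, since the largest distance to a position was 9782 bp. No paired analysis was possible because there is 1 library per fraction. The read depth is unknown, so what it limits cannot be given.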

Other observations

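Pseudogenes and other non-coding genes with these names, which are not among the members, lay on both sides of 0. Of 9 such entries, 4 pseudogenes and the non-coding RNA Kif16bos lay below 0, and 4 pseudogenes above. The share of all pseudogenes and other non-coding genes below 0 was not counted. Kif16bos had the same score, -0.83, as the higher-coordinate end of Kif16b, and so is not a separate measurement. The copies of beta-tubulin Tubb4b lay at -1.63 (Tubb4b-ps1, chromosome 5, 7179296 to 7180843) and -1.43 (Tubb4b-ps2, chromosome 1, 24593931 to 24595489), while Tubb4b itself had 1.57. The copies of Tubb2a had -1.18 (Tubb2a-ps2) and 0.49 (Tubb2a-ps1), against 1.32 for Tubb2a. The copy of the chromosome motor gene Kif22 had -1.43, against 1.82 for Kif22. Kif4-ps had 0.65, Tubb3-ps1 1.14 and Tuba5-ps 1.56. How reads that match a gene and its copy were treated is not given in the sources used here, and with 300 kb smoothing a score reflects the surroundings of a copy more than the copy. Chromosome 11 held the most members, 24 of 116, and 19 of them lay above 0, as did 81.0% of all members. The 6 clustered skeletal muscle chains were among these 24. The share of all protein-coding genes above 0 on chromosome 11 was not counted.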
